A study of Mus musculus with 24 samples.

Results

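Mtmr9, Plppr4, Rcbtb2, Xkrx and Vaultrc5 are 5 of the 24447 genes in a count matrix of single liver NKT (NK1.1+CD3e+) cells. They were chosen by their unique molecular identifier (UMI) counts, which were higher among cells of Jα18-deficient mice than among WT cells, across subsets or as leaders of that comparison. Their levels in the Jα18-deficient and WT pools are therefore a description, and nothing is supported with that contrast. The cells came from 3 genotypes on the C57BL/6 strain, which the labels give as wild type, J{alpha}18-/- and CD1d-/-, from mice 8 to 10 weeks old, with no treatment named in the labels. The WT mice were bought, whereas both deficient lines came from another laboratory, so genotype and colony cannot be told apart. Sex and number of the mice are not given in the sources used here. The labels list 24 libraries, 8 per genotype, but a cell's name gives a number and no library. The genotypes thus formed 3 pools without replicates, no difference between pools was tested, and every interval covers counting error only. Cell names carry no barcode sequence, so barcodes shared between libraries could not be counted.

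Type I NKT cells carry a semi-invariant T cell receptor built with the Jα18 segment and recognize lipid antigens on CD1d. Mice without Jα18 have no type I NKT cells, whereas loss of CD1d removes type II NKT cells as well, so the sorted gate holds other NK1.1+ T cells in each line. The first Jα18-deficient line is known to have lost further Jα segments beside the targeted one, and Cd1d2 is left intact in the CD1d-deficient line. None of the 5 genes is a textbook marker of NKT cells. Mtmr9 encodes a myotubularin-related protein without phosphatase activity that binds active myotubularins, enzymes that remove phosphate from phosphoinositides. Plppr4 encodes a phospholipid phosphatase-related membrane protein known from synapses. Rcbtb2 encodes a protein with RCC1 repeats and a BTB domain. Xkrx belongs to the XK family of membrane proteins, which includes the phospholipid scramblase Xkr8. Vaultrc5 encodes a vault RNA, a short RNA made by RNA polymerase III that associates with the vault particle.

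The WT pool held 623 cells and 34102694 UMIs, the Jα18-deficient pool 725 cells and 60484252 UMIs, and the CD1d-deficient pool 387 cells and 14536585 UMIs. Median depth per cell was 40467, 46670 and 13508 UMIs in that order. Cd1d1, which the CD1d deletion removes, had 0 UMIs in the CD1d-deficient pool, 854 in the WT and 934 in the Jα18-deficient pool. The Jα18 segment was not analysed here, so the Jα18-deficient label has no check of its own. Summed counts per 1000000 UMIs (CPM) of 5 T cell and NK1.1 genes were 4621 to 4849 in the 3 pools, and none of the 5 was at 0.

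In the mm9 assembly with the GENCODE vM1 annotation, Mtmr9 lies on the minus strand at chr14:64142453-64162790 and Rcbtb2 on the plus strand at chr14:73522844-73607650. Plppr4, listed there as D3Bwg0562e, lies on the minus strand at chr3:117022063-117063794, and Xkrx on the minus strand at chrX:130683582-130696615. Vaultrc5 was not found in that annotation by its symbol or synonyms. Values are counts per whole gene and so do not belong to a single exon, intron or UTR. Rcbtb2 overlaps Rb1, Gm17233 and Mir687 on the opposite strand, Plppr4 overlaps AC165162.1 on the opposite strand, and Xkrx overlaps Nox1 on its own strand. Whether counting used the strand is not given in the sources used here, so reads of such overlaps cannot be told apart with certainty. Nox1 and Mir687 had 0 UMIs in all 3 pools. Rb1 had 306 UMIs in the WT, 285 in the Jα18-deficient and 48 in the CD1d-deficient pool, far below Rcbtb2 in each.

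Promoter windows from RefSeq on GRCm38.p6, 250 bases before to 50 after the start, are shown for 3 of the 5 genes. Windows of the other genes were not analysed here. The windows are Plppr4 at chr3:117360827-117361126 on the minus strand, the first of 2 listed starts of Rcbtb2 at chr14:73142535-73142834 on the plus strand, and Xkrx at chrX:134162910-134163209 on the minus strand. Capitals mark matches on either strand to any of 7 motifs. These were TATAAA for the TATA box, CCAAT for the site of the factor NF-Y, GGGCGG for Sp1, CACGTG for an E-box, GGAAGT for ETS factors, TGACTCA for AP-1 and TGTGGT for RUNX factors.
Plppr4: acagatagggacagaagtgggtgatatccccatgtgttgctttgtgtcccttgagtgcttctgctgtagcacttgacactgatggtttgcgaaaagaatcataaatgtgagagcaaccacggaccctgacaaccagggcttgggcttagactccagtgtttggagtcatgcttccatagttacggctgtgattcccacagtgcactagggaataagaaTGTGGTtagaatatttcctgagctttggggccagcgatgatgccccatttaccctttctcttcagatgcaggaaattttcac
Rcbtb2: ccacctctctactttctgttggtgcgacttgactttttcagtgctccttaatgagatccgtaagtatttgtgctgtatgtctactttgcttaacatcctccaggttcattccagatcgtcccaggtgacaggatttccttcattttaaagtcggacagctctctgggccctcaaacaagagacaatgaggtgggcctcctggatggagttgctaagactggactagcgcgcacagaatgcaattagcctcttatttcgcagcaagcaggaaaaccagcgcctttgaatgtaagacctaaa
Xkrx: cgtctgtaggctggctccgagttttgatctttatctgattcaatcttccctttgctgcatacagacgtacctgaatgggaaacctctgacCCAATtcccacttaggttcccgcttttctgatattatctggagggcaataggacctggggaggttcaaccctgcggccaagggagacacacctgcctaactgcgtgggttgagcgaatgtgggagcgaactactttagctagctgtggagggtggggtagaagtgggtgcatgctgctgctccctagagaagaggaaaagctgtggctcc
The Plppr4 window held TGTGGT once, a sequence present in 16.8% of all 32851 promoters of this length. The Xkrx window held CCAAT once, present in 37.4% of them. Neither Rcbtb2 window held any of the 7, and no motif was shared between the genes. No motif overlapped another in these windows. GC content was 47.3% for Plppr4, 46.7% for the Rcbtb2 window shown and 52.7% for Xkrx, against a median of 52.7% over all promoters.

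Mtmr9 was the gene with the widest gap. It had 95 UMIs in WT, 7710 in Jα18-deficient and 34 in CD1d-deficient cells, which is 2.79 CPM (95% Poisson interval 2.25 to 3.41), 127 CPM (125 to 130) and 2.34 CPM (1.62 to 3.27). A UMI was present in 22 of the 623 cells in WT (3.53%), 421 of the 725 in Jα18-deficient (58.1%) and 10 of the 387 in CD1d-deficient mice (2.58%). The WT and CD1d-deficient intervals overlapped, and the Jα18-deficient pool stood alone. The 10 highest cells held 87.4% of the WT UMIs and 28.9% of the Jα18-deficient UMIs, and a single Jα18-deficient cell held up to 354.

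Plppr4 was found in the largest share of Jα18-deficient cells after Rcbtb2 at the deposited depth, with low counts per cell. It had 77, 1817 and 80 UMIs in the WT, Jα18-deficient and CD1d-deficient pools, which is 2.26 CPM (1.78 to 2.82), 30.04 CPM (28.7 to 31.5) and 5.50 CPM (4.36 to 6.85). Cells with a UMI made up 6.90%, 65.7% and 9.30% in that order. Here the CD1d-deficient pool lay above the WT pool in CPM without overlap of the intervals, and both lay far below the Jα18-deficient pool. A single CD1d-deficient cell held 26 of the 80 UMIs. For the shares of cells, the WT (5.04 to 9.18) and CD1d-deficient (6.60 to 12.6) intervals overlapped. The median Jα18-deficient cell with Plppr4 held 2 UMIs of it.

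Xkrx was the lowest of the 5, with 12, 554 and 15 UMIs in the WT, Jα18-deficient and CD1d-deficient pools. These were 0.352 CPM (0.182 to 0.615), 9.16 CPM (8.41 to 9.95) and 1.03 CPM (0.578 to 1.70), in 1.44%, 30.6% and 3.10% of cells. The 12 WT UMIs came from 9 cells, and the WT and CD1d-deficient intervals overlapped. Vaultrc5 had 194, 2038 and 97 UMIs, or 5.69 CPM (4.92 to 6.55), 33.7 CPM (32.2 to 35.2) and 6.67 CPM (5.41 to 8.14), in 4.65%, 34.9% and 8.53% of cells. Again the WT and CD1d-deficient intervals overlapped. The 10 highest Jα18-deficient cells held 42.8% of the Vaultrc5 UMIs, the largest such share of the 5 genes in that pool. The libraries were made from polyA RNA, and vault RNAs are not known as polyadenylated, so how these UMIs arose was not tested.

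Rcbtb2 differed from the other 4 by being common in every pool. It had 9108, 32238 and 1203 UMIs in the WT, Jα18-deficient and CD1d-deficient pools, which is 267 CPM (262 to 273), 533 CPM (527 to 539) and 82.8 CPM (78.1 to 87.6). A UMI was present in 61.8%, 87.0% and 29.97% of cells. The 3 intervals were apart, and Rcbtb2 alone had a CD1d-deficient interval wholly below the WT interval.

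**Figure D1:**
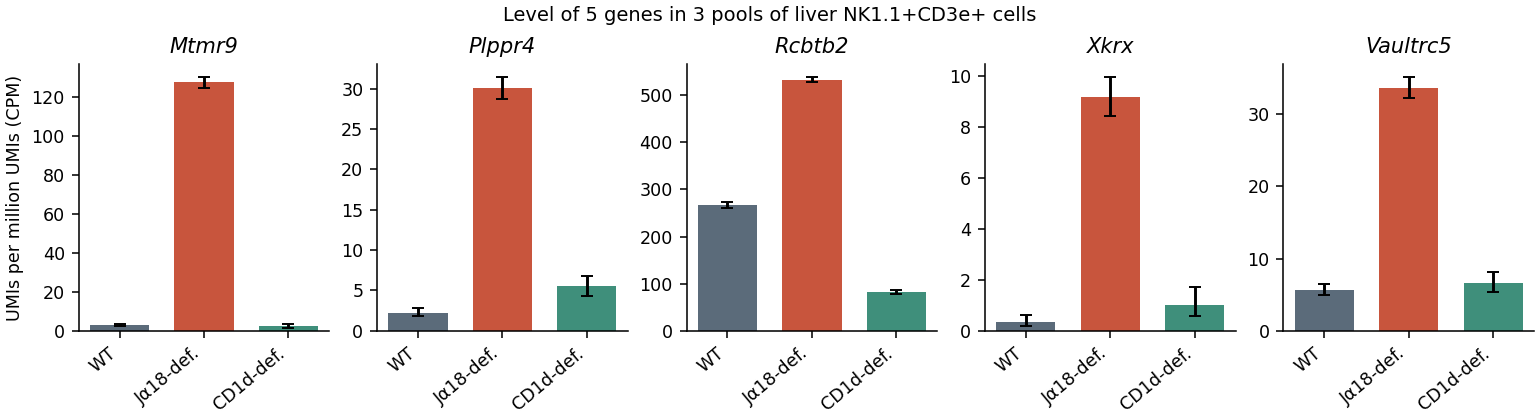
Level of each gene in CPM (y axis, linear from 0, a scale of its own per panel) in the WT, Jα18-deficient and CD1d-deficient pools (x axis). Bars are pool totals of 1 pool each and error bars are exact Poisson 95% intervals. The middle bar is the highest in all 5 panels, and the right bar falls below the left bar without overlap for Rcbtb2 alone.

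Ratios were read against the genes with at least 100 UMIs over a pair of pools and detection in 20% or more of the cells in 1 of them. In the Jα18-deficient over WT comparison, 5.38% of 4575 such genes were at least 2-fold higher, and 0.809% at least 2-fold lower. All 5 genes met this minimum, which the Jα18-deficient pool alone gave to 4 of them, and 4 of the 5 were at least 2-fold higher, a count that the choice of the genes fixes. The log2 ratio of Mtmr9 was 5.52 (95% counting interval 5.22 to 5.82), rank 1 of 4575. Xkrx at 4.70 (3.89 to 5.66) was rank 2, Plppr4 at 3.73 (3.405 to 4.08) rank 4 and Vaultrc5 at 2.57 (2.35 to 2.79) rank 7. Rcbtb2, with 0.997 (0.963 to 1.03), was at rank 252 and a linear ratio just under 2. The median log2 ratio over these 4575 genes was 0.13. Other genes among the 10 highest were Metrnl (3.89), Lgals3 (2.73), Slain2 (2.59), Dapk3 (2.51), Dennd5b (2.42) and Smim19 (2.41). Metrnl and Lgals3, which encode a secreted meteorin-like protein and galectin-3, had a UMI in 23.4% and 73.1% of Jα18-deficient cells. At the other end, the 10 lowest ratios ran from Serpina3f (-2.64), Lyz2 (-2.40) and Maf (-2.17) to Fas (-1.49).

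**Figure D2:**
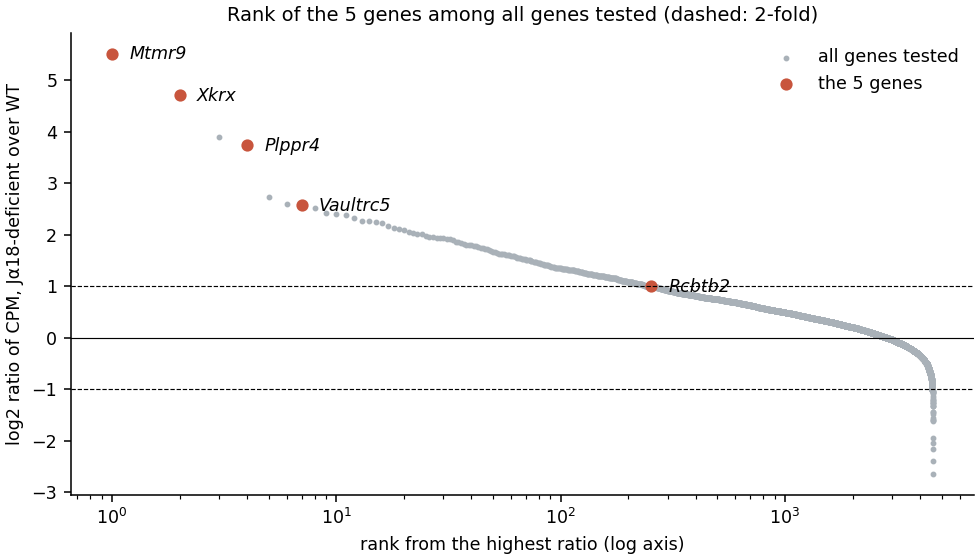
Log2 ratio of CPM, Jα18-deficient over WT (y axis), against the rank from the highest ratio (x axis, log scale) for 4575 genes, each a point, with the 5 genes in colour and 2-fold as dashed lines. Mtmr9, Xkrx, Plppr4 and Vaultrc5 sit at ranks 1, 2, 4 and 7, and Rcbtb2 sits on the upper dashed line at rank 252.

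The CD1d-deficient pool was not used to choose the genes. It shares the WT pool with the comparison above, so values are set side by side only. For CD1d-deficient over WT, 5.37% of 3630 genes were at least 2-fold higher and 3.25% at least 2-fold lower. Only Rcbtb2 of the 5 met the minimum, with a log2 ratio of -1.69 (-1.78 to -1.60), at rank 3599 from the highest. The other 4 were too sparse in both pools for that minimum. Of these, Plppr4 had a log2 ratio of 1.29 (0.82 to 1.76) and Xkrx of 1.55 (0.36 to 2.78), whereas Mtmr9 had -0.25 (-0.86 to 0.33) and Vaultrc5 0.23 (-0.14 to 0.59). The Plppr4 value moved with the processing, from -0.07 with every cell weighted equally and 0.94 without the 10 highest cells of each pool to 2.08 at equal depth. Jα18-deficient over CD1d-deficient shares with the first comparison the pool in which the genes were chosen to be high, and 4 of the 5 met the minimum through that pool alone. There 7.43% of 4579 genes were at least 2-fold higher, and all 5 genes were among them, a count that is a description and not independent of the choice. Mtmr9 had a log2 ratio of 5.77 (5.28 to 6.30), Xkrx 3.15 (2.42 to 3.997), Rcbtb2 2.69 (2.60 to 2.77), Plppr4 2.45 (2.13 to 2.79) and Vaultrc5 2.34 (2.04 to 2.65), at ranks 1, 4, 10, 16 and 18. Among the 10 genes highest in Jα18-deficient over WT cells, the CD1d-deficient level lay between 1.03 and 42.2 CPM.

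Depth differed between the pools, so cells of at least 10000 UMIs were thinned at random to 10000 UMIs each, which kept 523 WT, 632 Jα18-deficient and 227 CD1d-deficient cells and left out 100, 93 and 160. At equal depth the share of cells with Mtmr9 was 2.29% in WT (Clopper-Pearson 95% interval 1.19 to 3.97), 36.7% in Jα18-deficient (32.9 to 40.6) and 2.20% in CD1d-deficient mice (0.719 to 5.07). Plppr4 was present in 2.10%, 29.7% and 7.49%, Xkrx in 0.191%, 11.9% and 0.441%, and Vaultrc5 in 2.49%, 16.0% and 5.73% in the same order. Rcbtb2 was present in 48.4% (44.0 to 52.8), 69.6% (65.9 to 73.2) and 25.6% (20.01 to 31.7). The Jα18-deficient share was the highest for each of the 5 genes, and for each its interval lay above both others.

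Cells were then split by Cd8a, which encodes the CD8 alpha chain, with positive meaning at least 1 UMI after thinning. The Cd8a positive gate held 46 WT, 128 Jα18-deficient and 106 CD1d-deficient cells, and the negative gate 477, 504 and 121. In the Jα18-deficient pool Mtmr9 was in 45.3% of Cd8a positive (36.5 to 54.3) and 34.5% of Cd8a negative cells (30.4 to 38.9). Plppr4 was in 30.5% and 29.6%, Xkrx in 13.3% and 11.51%, and Vaultrc5 in 18.0% and 15.5%. The intervals of these shares overlapped between the gates for each of the 4 genes. The genes were chosen as higher across subsets or as leaders of the comparison with WT, so their presence in both gates is a description. The WT shares of these 4 genes were 0 to 4.35% in Cd8a positive and 0.210% to 2.52% in Cd8a negative cells. Xkrx was in 0 of 46 Cd8a positive WT cells, a limit of 6.52% at the floor of 3 counts and a Clopper-Pearson upper limit of 7.71%.

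For Jα18-deficient over WT in Cd8a positive cells, 7.69% of 2470 genes were at least 2-fold higher and 4.01% at least 2-fold lower. Here 2 of the 5 genes, Mtmr9 and Rcbtb2, met the minimum. Mtmr9 had 193 against 2 UMIs, a log2 ratio of 5.12 (3.24 to 8.17), and Rcbtb2 had 419 against 67 UMIs, a log2 ratio of 1.17 (0.79 to 1.56). The other 3 were below the minimum. Plppr4 had 54 against 1 UMI, with a log2 ratio of 4.28 (1.74 to 9.61), and Vaultrc5 had 59 against 3 UMIs, with 2.82 (1.20 to 5.14). Xkrx had 19 against 0 UMIs, at least 2.28-fold higher with a floor of 3 UMIs over the WT cells of the gate. In Cd8a negative cells 2.58% of 2555 genes were at least 2-fold higher and 0.822% at least 2-fold lower, and Mtmr9, Plppr4 and Rcbtb2 met the minimum. Log2 ratios were 5.15 (4.44 to 5.97) for Mtmr9, 4.18 (3.31 to 5.21) for Plppr4, 1.098 (1.0005 to 1.20) for Rcbtb2, 3.13 (2.52 to 3.803) for Vaultrc5 and 6.44 (3.93 to 11.8) for Xkrx, whose WT count was 1 UMI. Ratios of the same gene in the 2 gates had overlapping intervals for Mtmr9, Plppr4, Rcbtb2 and Vaultrc5.

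**Figure D3:**
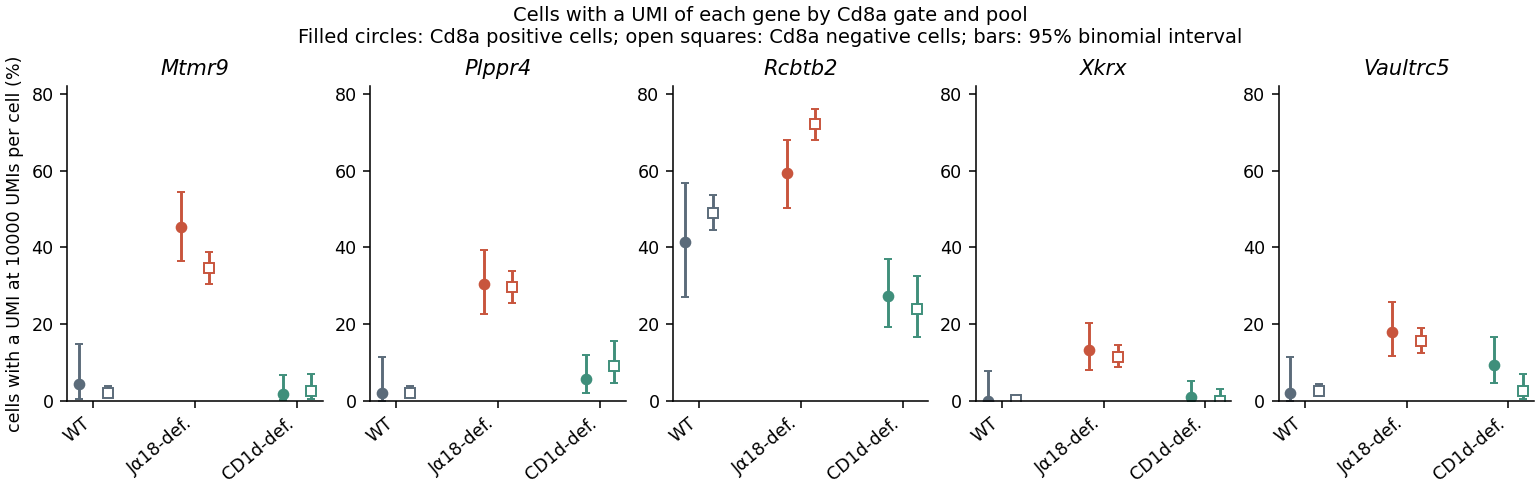
Percentage of cells with a UMI of each gene at 10000 UMIs per cell (y axis) by pool (x axis), in Cd8a positive cells (filled circles) and Cd8a negative cells (open squares). Bars are 95% Clopper-Pearson intervals over cells, with 46 to 504 cells per point. Jα18-deficient points lie above the WT and CD1d-deficient points of the same gate for all 5 genes, with the 2 gates side by side at 45.3% and 34.5% for Mtmr9.

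Levels in Cd8a positive against Cd8a negative cells of the same pool were not used to choose the genes. Rcbtb2 was lower in Cd8a positive cells of all 3 pools, before any split by other genes. Its levels were 146 against 257 CPM for WT, 327 against 551 CPM for Jα18-deficient and 86.8 against 123 CPM for CD1d-deficient cells. The log2 ratios, positive over negative, were -0.82 (-1.20 to -0.47), -0.75 (-0.90 to -0.60) and -0.50 (-0.90 to -0.12). Mtmr9 had the opposite sign in the Jα18-deficient pool, with 151 against 119 CPM and a log2 ratio of 0.34 (0.09 to 0.57). The 10 highest of 128 Cd8a positive cells held 53.4% of the Mtmr9 UMIs of that gate, and the intervals of the shares of cells overlapped. In that pool Plppr4 (0.01, -0.45 to 0.45), Vaultrc5 (0.07, -0.37 to 0.49) and Xkrx (-0.30, -1.09 to 0.43) had intervals that included 0. Vaultrc5 in the CD1d-deficient pool had 16 against 7 UMIs, from 10 and 3 cells, and a log2 ratio of 1.38 (0.02 to 2.91).

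Rcbtb2 was also lower in cells with a UMI of an Ly49 gene, a receptor family of NK cells. It had 165 CPM in Ly49 positive and 279 CPM in Ly49 negative WT cells, 414 and 690.0 CPM in Jα18-deficient cells, and 88.9 and 159 CPM in CD1d-deficient cells. The intervals of the Ly49 gates were apart in each pool. Among Ly49 positive Jα18-deficient cells Rcbtb2 had 247 CPM (218 to 278) in Cd8a positive and 470 CPM (447 to 495) in Cd8a negative cells. Among Ly49 negative cells of that pool it had 738 CPM (626 to 864) and 685 CPM (648 to 723). Ly49 negative intervals of the 2 Cd8a gates also overlapped in WT (246 and 280 CPM) and CD1d-deficient cells (142 and 173 CPM). These Ly49 negative gates held 13 to 26 Cd8a positive cells per pool. Mtmr9 in the Jα18-deficient pool was in 36.3% of 422 Ly49 positive and 37.6% of 210 Ly49 negative cells. Among Jα18-deficient cells positive for both Cd8a and Ly49, 54 of 107 held Mtmr9 (50.5%, 40.6 to 60.3). The share was 4 of 21 (19.0%, 5.45 to 41.9) in Cd8a positive Ly49 negative cells, 31.4% (26.3 to 36.9) in Cd8a negative Ly49 positive cells and 39.7% (32.7 to 47.0) in cells negative for both. Shares of Xkrx were nearly level, with 11.8% in Ly49 positive and 11.9% in Ly49 negative cells of that pool. Plppr4 was in 31.3% and 26.7%, and Vaultrc5 in 15.6% and 16.7%. A split of the same pool by a UMI of Cd4 was less even for Xkrx. It was in 21.9% of 73 Cd4 positive cells (13.1 to 33.1) and 10.6% of 559 Cd4 negative cells (8.13 to 13.4). Its levels there were 42.5 CPM (28.9 to 60.3) and 14.3 CPM (11.3 to 17.8), with 80.6% of the Cd4 positive UMIs in the 10 highest cells. Mtmr9 was in 37.0% and 36.7% of these cells.

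Within the Jα18-deficient pool the 5 genes responded differently to cell depth as deposited. From 93 cells under 10000 UMIs to 195 cells over 100000 UMIs, median depth rose from 6333 to 176083 UMIs. Mean UMIs of Mtmr9 per cell went from 0.591 to 28.1 and those of Rcbtb2 from 2.66 to 113, so their CPM stayed within 97.6 to 134 and 438 to 539 over the 4 depth bands. Mean UMIs of Plppr4 went from only 1.48 to 4.12 per cell, and its CPM fell from 245 to 65.5, 41.9 and 19.6 from the shallowest to the deepest band. Xkrx had 0.462 UMIs per cell in the shallowest and 0.569 in the deepest band, with 76.3, 35.7, 17.9 and 2.71 CPM from the shallowest to the deepest. Vaultrc5 had 49.7, 52.3, 56.4 and 23.3 CPM.

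The log2 ratio of CPM in cells under 10000 over cells above 100000 UMIs put this against other genes of the pool. Among 4360 genes with at least 10 UMIs in both bands, Xkrx had 4.81, rank 1 from the highest, and Plppr4 had 3.64, rank 7. The median of these genes was -0.23, with 90% of them between -1.155 and 1.1504. Mtmr9 at -0.46 and Rcbtb2 at -0.30 lay inside that range, and Vaultrc5 at 1.095 was rank 235. In the WT pool Plppr4 was high on the same measure, with 3.41 and rank 9 of 4002 genes, from 10 and 28 UMIs. Depth thus moved with the level of Xkrx and Plppr4, and its part in their ratios was not tested. Within the single bands above 10000 UMIs the Jα18-deficient over WT log2 ratio ran from 5.08 to 5.72 for Xkrx and from 3.26 to 5.01 for Plppr4. The WT side of these ratios rested on 2, 9 and 1 UMIs of Xkrx and 6, 33 and 28 of Plppr4, in order of rising depth.

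**Figure D4:**
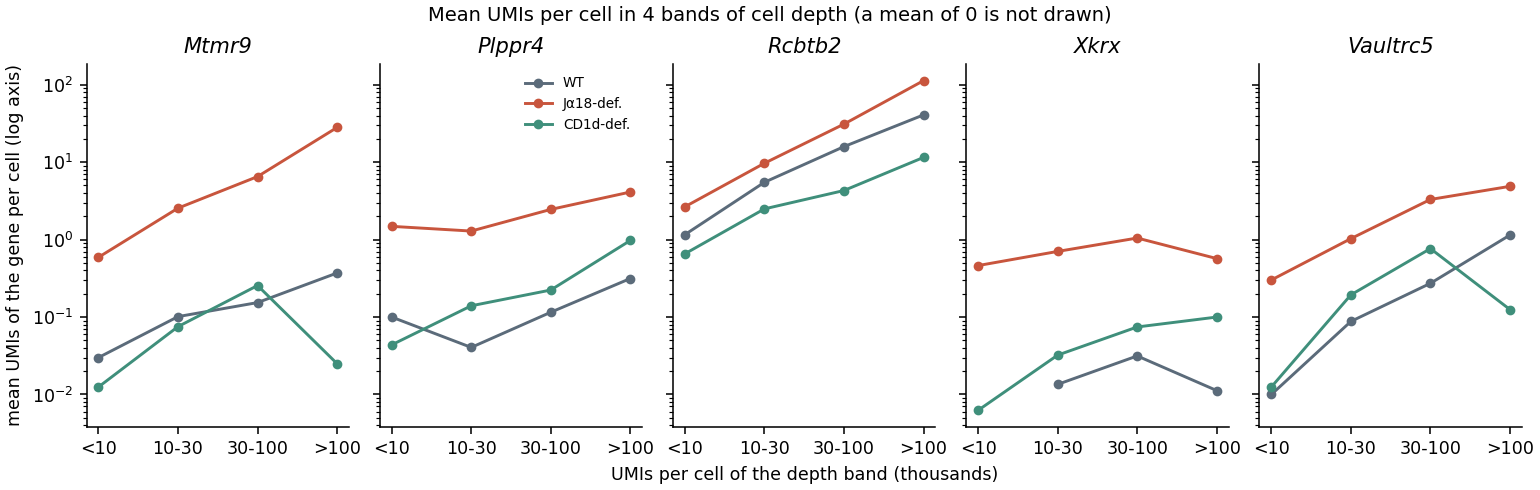
Mean UMIs of each gene per cell (y axis, log scale) in 4 bands of UMIs per cell (x axis, from under 10000 to over 100000), with a line per pool and means of 0 not drawn. In Jα18-deficient cells the lines of Mtmr9 and Rcbtb2 climb with depth, to 28.1 and 113 UMIs per cell, while that of Xkrx stays between 0.462 and 1.05.

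At equal depth the genes were seldom all in the same cell. At least 2 of the 5 were present in 3.44% (WT), 54.9% (Jα18-deficient) and 4.85% (CD1d-deficient) of cells, and all 5 in 5 of 632 Jα18-deficient cells. Mtmr9, Plppr4 or Xkrx was present in 24 of the 523 WT cells (4.59%, 2.96 to 6.75), 384 of the 632 from Jα18-deficient (60.8%, 56.8 to 64.6) and 23 of the 227 from CD1d-deficient mice (10.1%, 6.53 to 14.8). Thus 248 Jα18-deficient cells had none of these 3 at this depth. In the Jα18-deficient pool Mtmr9 was in 31.9% of 188 cells with Plppr4 and 38.7% of 444 cells without it. Vaultrc5 showed nearly the same share in cells with Mtmr9 (15.9%) and without it (16.0%). Cells with Xkrx had the other genes more often, with Mtmr9 in 46.7% against 35.4%, Plppr4 in 40.0% against 28.4% and Rcbtb2 in 84.0% against 67.7%, from 75 and 557 cells. The levels of Xkrx and Plppr4 both moved with depth before thinning, and its part in these shares was not tested.

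Xkrx is X-linked, and the pools differed in sex-linked transcripts. At equal depth a UMI of a Y-linked gene without Xist was present in 49.3% (WT), 40.2% (Jα18-deficient) and 27.3% (CD1d-deficient) of cells, and Xist without a Y-linked UMI in 0.191%, 0.316% and 7.49%. Within cells that held a Y-linked UMI and no Xist, Xkrx was in 30 of 254 Jα18-deficient cells (11.8%, 8.11 to 16.4). It was in 0 of 258 such WT cells and 0 of 62 such CD1d-deficient cells, which allows shares of up to 1.16% and 4.84%. The Xkrx share in Jα18-deficient cells with neither kind of UMI was 11.97% of 376. Genes of the X chromosome had the lowest share of genes at least 2-fold higher in the Jα18-deficient pool, 1.61% of 124 tested, of the 20 chromosomes compared.

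Mtmr9 and Rcbtb2 lie on chromosome 14, as does the T cell receptor alpha locus that holds Jα18. Position was not used to choose the genes. Measured from Dad1, the gene that borders that locus, Mtmr9 lies 9.29 Mb and Rcbtb2 18.7 Mb away. Within 20 Mb of Dad1, 9 of 89 genes tested (10.1%) were past 2-fold in either direction between the Jα18-deficient and WT pools, against 5 of 68 (7.35%) on the rest of the chromosome and 264 of 4348 (6.07%) on other chromosomes. In the CD1d-deficient over WT comparison the shares were 8.70%, 8.77% and 8.68%, and for Jα18-deficient over CD1d-deficient they were 10.5%, 2.90% and 10.5%. No test was made of these shares, and chromosome 14 ranked 3 of 20 chromosomes by its share of higher genes. The window and that rank both count Mtmr9, which was chosen from the Jα18-deficient over WT contrast. Beside Mtmr9, the genes past 2-fold in the window were Lgals3 (2.73), Rab2b (1.76), Psmb11 (1.75), Loxl2 (1.153) and Styx (1.08) with higher levels, and Atp8a2 (-1.61), Ttc5 (-1.14) and Dad1 (-1.05) with lower levels. Dad1, a subunit of the oligosaccharyltransferase, had 892 CPM in the WT and 432 CPM in the Jα18-deficient pool.

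**Figure D5:**
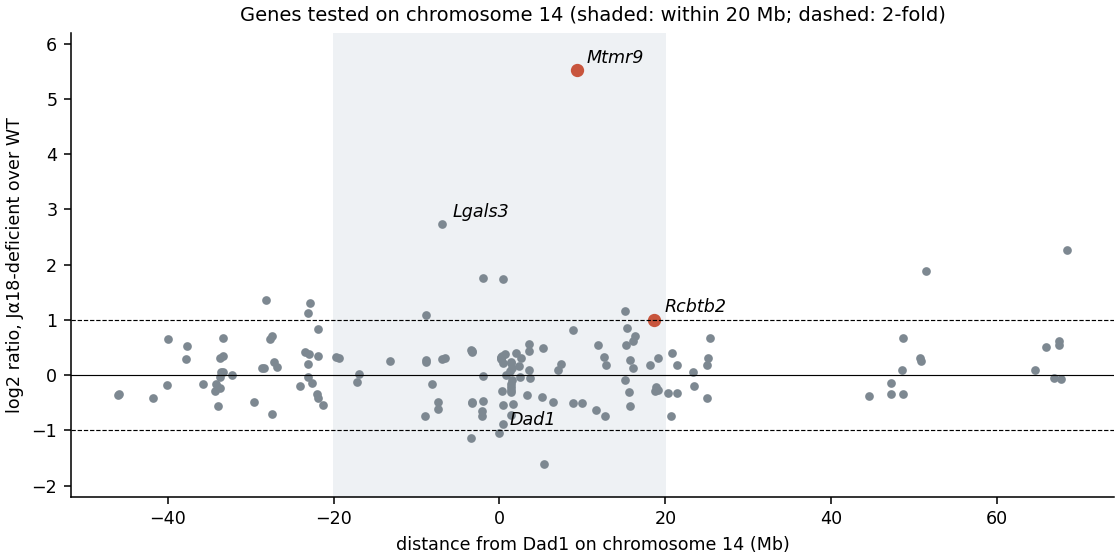
Log2 ratio, Jα18-deficient over WT (y axis), of the 157 genes tested on chromosome 14 against distance from Dad1 in Mb (x axis), with 20 Mb on either side shaded, 2-fold dashed, and Mtmr9 and Rcbtb2 in colour. Mtmr9 at 5.52 stands alone above the other points, of which Lgals3 at 2.73 is the highest.

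Neighbours of the 5 genes moved in both directions. Of 30 neighbours, 3 measured genes on either side of each in RefSeq order, 4 were at least 2-fold higher and 6 at least 2-fold lower by the Jα18-deficient over WT ratio. Most were in few cells, and 20.5% of the 10182 genes with at least 100 UMIs were past 2-fold in either direction. Around Mtmr9 the log2 ratios were 1.05 for Ints6, -0.51 for Ctsb, 0.82 for Fdft1, -0.11 for Pinx1, -0.51 for Msra and -1.68 for Kif13b. Around Vaultrc5, from Hars to Hdac3, they stayed between -0.37 and 0.23. Around Rcbtb2, 5 of the 6 values were below 0. Cysltr2, a receptor for cysteinyl leukotrienes, had 1237 UMIs in 17.3% of WT cells and 111 UMIs in 2.76% of Jα18-deficient cells, a log2 ratio of -4.30, and Gm9199 had -2.48. In the CD1d-deficient pool Cysltr2 had 341 UMIs and a log2 ratio to WT of -0.63. Rwdd3 near Plppr4 had 3.21, but was in 2.21% of Jα18-deficient cells, and Tspan6 near Xkrx had -5.55 and was in 0.803% of WT cells.

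Relatives and partners of the 5 were listed to see whether families moved. Of 50 such genes, all in the matrix, 8 met the minimum for Jα18-deficient over WT, 2 of these were at least 2-fold higher and 0 lower, where 5.38% and 0.809% of all genes tested were, and their median log2 ratio was 0.49 against 0.13 over all genes tested. The 2 were Sbf1, another myotubularin without phosphatase activity (1.58), and Herc2, an RCC1 repeat ubiquitin ligase (1.24). Mtmr6, an active partner of Mtmr9, had 12.9 CPM in the WT and 16.1 CPM in the Jα18-deficient pool, and Mtmr7, another partner, 1.03 and 0.116 CPM. Rcbtb1, the nearest relative of Rcbtb2, had 10.9 and 10.8 CPM. Mvp, the major vault protein, had a log2 ratio of 0.54, and Parp4, a second vault protein, 0.17. No lipid phosphate phosphatase relative other than Plppr4 and no XK relative other than Xkrx met the minimum. Xkr8 had 7.71 CPM (WT) and 2.99 CPM (Jα18-deficient), and Plppr1 and Plppr5 were at 0 in all pools.

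For each gene the 3 genes of most similar pattern outside the 5 were taken over 6 sums of pool and Cd8a gate. The measure was the root mean square difference of centred log2(CPM + 1), among 10455 genes with the 5 left out of the choice. They were Ube2c (0.82), Fbxw14 (0.93) and E330017A01Rik (0.94) for Mtmr9, and Adamts14 (0.50), Bcl7a (0.60) and Efhc2 (0.61) for Plppr4. Rcbtb2 was closest to Adamtsl4 (0.23), Zfp607b (0.24) and Tcf3 (0.25), Xkrx to Dppa5a (0.64), E330017A01Rik (0.71) and Fbxw14 (0.72), and Vaultrc5 to Tigd3 (0.35), Ctnnbip1 (0.36) and Dnajc25 (0.41). Among the 5, Xkrx and Vaultrc5 were the closest pair (0.69), followed by Mtmr9 and Xkrx (0.73), and Mtmr9 and Rcbtb2 the farthest (1.62). Mtmr9 was thus closer to Xkrx than to any gene outside the 5. These sums share pools and depth, and several of the named genes were at 0 in the WT and CD1d-deficient sums.

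Markers of other liver cells had no common order across the pools. Summed levels in the WT, Jα18-deficient and CD1d-deficient pools were 35.5, 26.9 and 38.7 CPM for 10 hepatocyte genes, with Alb and Fgb at 0 in the Jα18-deficient pool. They were 89.4, 26.4 and 618 CPM for 10 myeloid and Kupffer genes, with none at 0 in the Jα18-deficient pool. Of these sums, Lyz2 alone gave 77.3, 14.7 and 588 CPM. They were 6.13, 11.04 and 14.4 CPM for 6 B cell genes, of which 5 are in the matrix and Ms4a1 and Pax5 were at 0 in the Jα18-deficient pool. They were 7.27, 14.7 and 5.92 CPM for 6 endothelial genes, of which Kdr, Clec4g, Lyve1 and Egfl7 were at 0 there. The 5 erythroid genes had 0 UMIs in the Jα18-deficient pool. The endothelial sum was thus the only one with its highest value in that pool, above the 9.16 CPM of Xkrx there and below the other 4 genes, and its part in the levels of the 5 genes was not tested.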

How the data were processed

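NK1.1+CD3e+ cells were sorted from perfused livers of the 3 genotypes, picked by hand and sequenced from polyA RNA. The values are deposited as UMI counts, 1 per gene and cell, without normalization. Per the authors' methods and processing notes, reads were trimmed with Cutadapt 1.15, aligned to the mm9 transcriptome with Tophat 2.0.12, de-duplicated by UMI and counted with HTSeq 0.10.0. Their stated filter keeps cells of more than 500 genes and 10000 to 600000 transcripts, yet 353 of the 1735 cells are below 10000 UMIs. Single cells held 789 to 598221 UMIs.

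Cells were assigned to 3 pools by the genotype in their names. Per pool, CPM with exact Poisson 95% intervals, shares of cells with exact Clopper-Pearson 95% intervals and log2 ratios with exact conditional binomial intervals were computed. These cover counting error only, not the spread between mice, and with 1 pool per genotype no p-value was computed. A count of 0 was given a floor of 3. Cells were thinned without replacement to 10000 UMIs with a fixed seed, and doublets were not called, since cells were picked singly. Scripts were tested on simulated data. The 5 genes, gene lists and comparisons were chosen with earlier results of these data known. Genes named were the 5, their families, 3 neighbours on either side, and the 10 highest and 10 lowest ratios. Also named were the genes past 2-fold within 20 Mb of Dad1 and, per gene, the 3 most similar patterns outside the 5. By symbol 20249 genes and by synonym 1782 more were placed on mm9, and 2416 had no position. RefSeq gave gene order and promoters. Alternatives were TMM factors (edgeR 4.0.16, R 4.3.3), median-of-ratios size factors, thinned sums, means of per-cell CPM, the stated cell filter, leaving out the 10 highest cells, other minimums for genes, thinning to 5000 or 20000 UMIs, another seed and other Cd8a gates. Depth bands were added after the data were seen. Python 3.11.15, numpy 2.4.6, scipy 1.17.1, pandas 2.3.3 and matplotlib 3.10.9 were used.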

Additional observations from a re-analysis of the deposited data

How the results depend on the processing

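The Jα18-deficient pool had the highest share of cells for each of the 5 genes under every thinning tried. For Jα18-deficient over WT, 4 or 5 of the 5 genes were past 2-fold under the alternatives run. The share of all genes tested that were at least 2-fold higher moved as well. It was 5.38% in the main run and 4.04% to 5.44% under alternatives that kept the same 4575 genes. With at least 100 UMIs in any share of cells it was 14.045% of 10267 genes, and with no filter 15.9% of 12043 genes. The log2 ratio ran from 4.67 to 8.06 for Mtmr9, 4.58 to 6.52 for Xkrx, 3.26 to 5.01 for Plppr4, 1.64 to 3.83 for Vaultrc5 and 0.83 to 1.097 for Rcbtb2, which lay on either side of 2-fold. The highest Mtmr9 value came from leaving out the 10 cells of each pool with the most UMIs of the gene, which removes most WT UMIs by construction. TMM factors shifted every log2 ratio of this comparison by -0.11. For CD1d-deficient over WT, 3 of the 5 genes were past 2-fold in either direction, of which Rcbtb2 alone met the minimum. The count was 2 with the mean of per-cell CPM and 1 without the 10 highest cells. Of the 3630 genes tested there, 5.37% were at least 2-fold higher and 3.25% at least 2-fold lower. The log2 ratio of Plppr4 in that comparison reversed to -0.072 as the mean of per-cell CPM. Genes of chromosome 14 past 2-fold for Jα18-deficient over WT numbered 14 of 157 (8.92%), where 6.18% of all genes passed. With genes of at least 100 UMIs in any share of cells they numbered 79 of 345 (22.9%), where 21.2% of all genes passed. The cause was not tested for these changes, beyond the construction of the alternatives. No paired analysis was possible because cells carry no library number and each genotype is 1 pool. With no replicate the spread between mice or libraries is unknown, and in the Cd8a positive gate the 46 WT cells limit each ratio.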
